A study of Mus musculus with 10 samples.

Results

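The sites described here are open in both quiescent and activated mouse neural stem and progenitor cells (NSPCs) and were chosen because they ranked higher among such sites in the quiescent libraries. Overlapping or abutting ATAC-seq peaks of 2 quiescent and 2 activated libraries were merged on chromosomes 1 to 19, which gave 68484 sites, and 22941 of them had a peak in all 4 lists. Each of these kept sites was given a percentile, from 0 to 100, of its highest fold enrichment among the kept sites of the same list. The 1634 members were chosen by these values: the lower of the 2 quiescent percentiles exceeded the higher of the 2 activated percentiles by 15 points or more. They were 7.12% of the kept sites. The same rule in the opposite direction chose 1818 sites, or 7.92%. The quiescent against activated contrast made the choice, so it is given below as a description with no test.

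The NSPCs came from C57BL/6 mice at postnatal day 5 and were grown as early passage primary cultures, which are not a pure population of stem cells. Activated NSPCs grew in 20 ng/ml each of FGF2 and EGF, quiescent NSPCs in 20 ng/ml of FGF2 without EGF and with 25 ng/ml of BMP4, and reactivated NSPCs were kept with BMP4 for 4 days and then returned to FGF2 and EGF for 9 to 12 days. The labels give 4 days in BMP4 for the quiescent cells, whereas the study's methods give a shorter time before ATAC-seq. There were 2 biologically independent ATAC-seq libraries per state and 1 H3K4me3 ChIP-seq library in each of the quiescent and activated states.

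BMP4 is a secreted ligand whose receptors phosphorylate SMAD1, SMAD5 and SMAD9, and the SMADs then enter the nucleus with SMAD4 and act on genes such as those of the ID proteins. In cultured neural stem cells, BMP4 with FGF2 and without EGF gives a reversible exit from the cell cycle that is used as a model of the dormant stem cells of the adult brain. In ATAC-seq, the Tn5 transposase cuts DNA that is free of nucleosomes, so promoters and enhancers appear as peaks. H3K4me3 is a histone mark of promoters in use. NFI proteins bind the letters TTGGC and are known for their role in the gliogenic and quiescent states, and SOX proteins bind the core ACAAT and include factors that neural stem cells need.

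The 4 members with the largest difference are shown first, as the 200 bp around the centre of each site (the median summit of the 4 lists) in GRCm38, plus strand, with TTGGC or its reverse complement GCCAA in capitals.
chr1:73538672-73538871: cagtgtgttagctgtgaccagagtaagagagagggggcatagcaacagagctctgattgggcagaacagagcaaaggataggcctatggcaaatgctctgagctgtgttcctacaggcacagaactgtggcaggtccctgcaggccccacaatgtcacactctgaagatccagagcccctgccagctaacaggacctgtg
chr7:65577182-65577381: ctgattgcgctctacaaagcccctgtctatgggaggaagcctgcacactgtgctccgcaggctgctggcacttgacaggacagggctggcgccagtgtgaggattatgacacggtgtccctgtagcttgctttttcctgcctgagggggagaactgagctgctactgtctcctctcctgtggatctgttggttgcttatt
chr12:8536297-8536496: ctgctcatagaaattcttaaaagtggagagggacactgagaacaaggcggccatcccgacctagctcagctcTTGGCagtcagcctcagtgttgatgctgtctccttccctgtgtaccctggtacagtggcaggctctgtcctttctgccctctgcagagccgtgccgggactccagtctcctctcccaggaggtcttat
chr5:8116639-8116838: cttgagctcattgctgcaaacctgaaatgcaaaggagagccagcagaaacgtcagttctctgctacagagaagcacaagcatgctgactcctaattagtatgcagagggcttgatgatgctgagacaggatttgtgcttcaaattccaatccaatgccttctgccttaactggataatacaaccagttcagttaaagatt
Of the 4 windows, the one on chromosome 12 holds an NFI site.

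The same windows are shown for the promoters of Smad6, an inhibitory SMAD, and Msx2, a homeobox factor, which are members at genes of the BMP pathway, again on the plus strand of GRCm38 with TTGGC or GCCAA in capitals.
Smad6, chr9:64021959-64022158: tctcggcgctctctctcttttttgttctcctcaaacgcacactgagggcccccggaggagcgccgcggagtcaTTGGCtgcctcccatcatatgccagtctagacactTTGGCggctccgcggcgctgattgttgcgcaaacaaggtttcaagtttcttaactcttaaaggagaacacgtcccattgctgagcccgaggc
Msx2, chr13:53472760-53472959: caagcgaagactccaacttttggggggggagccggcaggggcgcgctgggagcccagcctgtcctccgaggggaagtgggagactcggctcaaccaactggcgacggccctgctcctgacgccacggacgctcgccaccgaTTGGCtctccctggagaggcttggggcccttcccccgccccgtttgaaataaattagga
Both windows hold the NFI letters and neither holds the SMAD letters GTCTG or GGCGCC. Of the 7 members at promoters of BMP pathway genes, 4 hold the NFI letters in their window (Smad6, Msx2, Smad9 and Msx1), and those at Nog, Smad7 and Id1 do not. The letters were in 48.7% of all promoter members and 42.1% of kept promoter sites, so nothing is read from this count. The Msx2 match and the first Smad6 match read ATTGGC, which also holds the CCAAT box described below.

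Fold enrichment is the pileup of reads at a peak over the background of the same library, each with 1 added. The quiescent lists held 55027 and 60881 peaks for replicates 1 and 2, the activated lists 58618 and 47323, and the reactivated lists 106586 and 107137. The background pileup was 6.61, 12.1, 6.54, 6.01, 6.50 and 6.52 in the same order, so quiescent replicate 2 was the deepest library, and it called no peak under 25 reads where the other 5 began at 16 or 17. At the members, the median summit pileup was 59 and 89 reads in quiescent and 38 and 30 reads in activated replicates 1 and 2; the lowest activated pileups at a member were 17 and 16, the lowest at which these lists hold a call. The peak names carry lane tags, with L005 in both quiescent replicate 2 and activated replicate 1 and a tag of its own in each of the other 2 lists. As a check of the cell type, 7 of 8 markers of neural stem and progenitor cells (Sox2, Nes, Fabp7, Vim, Msi1, Pax6 and Sox9) had a promoter peak in all 4 lists. None of 6 microglial markers did. Of 6 markers each, Flt1 did among endothelial, Syn1 and Snap25 among neuronal and Myrf among oligodendrocyte markers, and of 4 hepatocyte markers Ttr did. No promoter peak in any of the 4 lists was found for 3 of the microglial, 3 of the endothelial, 1 of the neuronal, 4 of the oligodendrocyte and 3 of the hepatocyte markers, among them Csf1r, Cdh5, Slc17a7, Mog and Alb, and the markers not yet counted had one in some of the lists. The part that other cells of the cultures had in the results was not tested.

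The median member stood at percentile 63.4 and 60.8 in quiescent replicates 1 and 2 and at 21.5 and 20.5 in activated replicates 1 and 2. In fold enrichment, the medians were 7.10 and 6.50 in quiescent against 4.91 and 4.14 in activated NSPCs. Over all kept sites the order was the reverse, since the quiescent medians were 5.92 and 5.50 and the activated medians 7.29 and 6.04. The mean quiescent over the mean activated fold enrichment was 1.43 at the median member and 0.899 at the median kept site, and the latter is a shift of -0.15 on the log2 scale, relative to which the percentiles are read. In 1532 of the 1634 members, both quiescent fold enrichments were also above both activated ones without any scaling, as in 2639 of all 22941 kept sites. These are the values the rule used, so nothing is read from that count. Replicates at members differed by a median of 6.35 points in quiescent and 7.19 points in activated NSPCs.

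**Figure D1:**
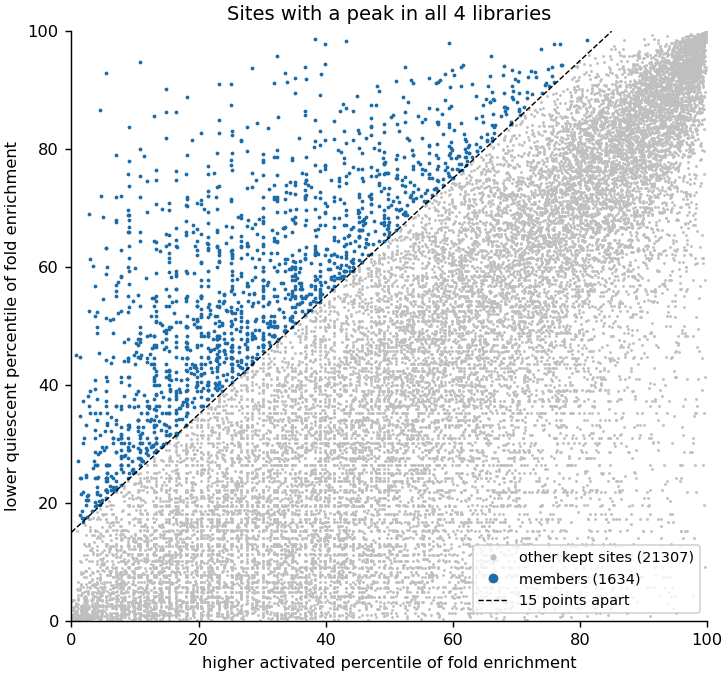
Each point is 1 of the 22941 kept sites, with the higher of its 2 activated percentiles on the x axis and the lower of its 2 quiescent percentiles on the y axis. The 1634 members lie on and above the dashed line, where the quiescent value is 15 points higher. Few of them lie at the right, where both states are near the top.

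The difference between the states, taken from the lower quiescent to the higher activated percentile, had a median of 24.1 points among members and reached 87.6. It was 30 points or more in 549 members (33.6%), 50 or more in 115 and 70 or more in 9. Of the members, 516 lay between 15 and 20 points and 1118 at 20 or more, and a further 851 kept sites lay between 10 and 15 points and were left out. One of the 3 members nearest the threshold was an intergenic site at chr9:38640634-38640910, at percentiles of 19.6 and 26.4 in quiescent NSPCs and 4.57 and 1.94 in activated NSPCs (replicates 1 and 2). One of the 3 kept sites nearest below it was a promoter site at chr7:62209443-62209662, at 42.9 and 36.5 in quiescent NSPCs and 21.5 and 8.95 in activated NSPCs.

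Each replicate pair was also read alone, as a description of how far the pairs differ. The labels tie the libraries of a pair by replicate number only. The shared lane tag L005 crosses the pairs, since it joins quiescent replicate 2 with activated replicate 1. The sets so chosen are larger than the members and come from the same 4 lists, so no support for the members is drawn from them. With replicate 1 alone, 4651 kept sites (20.3%) were higher in quiescence by 15 points or more. In replicate 2, which had no part in that choice, 3400 of them (73.1%) were higher in quiescence, against 51% of all kept sites, and the median difference was 12.1 points against 0.244. Chosen with replicate 2, 4520 sites were higher in quiescence by as much, and 3440 (76.1%) of these were higher in replicate 1, against 51.8% of all kept sites, with a median of 13.3 against 0.482 points. In both directions the difference shrank in the pair that did not choose the sites. With 2 libraries against 2, the smallest two-sided p of an exact permutation test is 0.333, so that test could pass no threshold at a single site. No model over all sites was fitted, since the contrast had chosen the members.

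Among the 12 members with the largest difference, 7 were intergenic, and 10 had no protein-coding gene by the rule of assignment used here (a gene start within 1 kb of any part of the site, or the site's centre from 25 kb upstream to 10 kb downstream of the start). The leading member, chr1:73538593-73539019, lay 523 kb from the nearest protein-coding gene start. Its fold enrichment was 13.6 and 12.1 in quiescent NSPCs, 3.32 and 3.14 in activated NSPCs and 11.6 and 13.2 in reactivated NSPCs (replicates 1 and 2). The quiescent mean was 12.8 ± 1.06 and the activated mean 3.23 ± 0.126 (SD, n = 2), a ratio of 3.98. Fold enrichment ran higher in the reactivated libraries as a whole, with medians of 10.4 and 10.7 over kept sites, so their place is read in percentiles, which here were 61.2 and 69.7 and lay between the activated (4.57 and 5.44) and the quiescent (96.7 and 93.0) values.

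The second, chr7:65577084-65577529, lay 49.5 kb from the start of Tjp1, which encodes a scaffold protein of tight junctions, with fold enrichment of 13.3 and 12.7 in quiescent NSPCs, 3.45 and 3.57 in activated NSPCs and 8.0 and 9.18 in reactivated NSPCs. The third overlapped an exon on chromosome 12 at chr12:8535754-8536752, 36.4 kb from the start of Rhob, which encodes a small GTPase, and read 12.4 and 10.4 in quiescent NSPCs, 3.32 and 2.85 in activated NSPCs and 8.72 and 10.1 in reactivated NSPCs. At both, the reactivated libraries lay between the other states in percentile, at 29.5 and 36.7 and at 35.6 and 44.5. The fourth, chr5:8116545-8117157, was a promoter site within Adam22, with 14.9 and 11.2 in quiescent NSPCs, 4.38 and 3.14 in activated NSPCs and 8.94 and 8.25 in reactivated NSPCs (percentiles 37.5 and 29.1). Another of the 12, chr5:44697994-44698582, was intronic in Ldb2, a LIM domain binding cofactor of transcription, and read 9.83 and 11.6 in quiescent against 3.85 and 3.42 in activated replicates.

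Reactivated values ran both ways among these 12 members. A site 20.5 kb upstream of Dync1li1, chr9:114667948-114668533, read 10.1 and 9.05 in quiescent NSPCs and 3.45 and 3.57 in activated NSPCs, and the reactivated replicates, at 3.47 and 4.39, had percentiles of 2.79 and 4.94, under both activated values. An intronic site of Smim13, chr13:41267819-41268391, read 11.03 and 8.68 in quiescent NSPCs, 3.85 and 3.28 in activated NSPCs and 15.7 and 19.01 in reactivated NSPCs, with reactivated percentiles of 88.3 and 96.4 beside 89.4 and 77.9 in quiescence.

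Members lay away from promoters more often than kept sites did. Of the 1634, 450 (27.5%, exact 95% interval 25.4 to 29.8%) were within 1 kb of an annotated transcription start site (TSS), 602 (36.8%) were intronic, 499 (30.5%) intergenic and 83 (5.08%) exonic. Over all kept sites, 54.0% were at promoters, 22.1% intronic and 20.4% intergenic. The sites stronger in activated NSPCs had nearly the same make-up as the members, with 28.3% at promoters, 36.2% intronic and 31.1% intergenic. A site near the top of both states cannot meet the rule, so a further set was taken after the values had been seen: the 10440 kept sites that were not members and whose mean percentile over the 4 lists lay between 22.5 and 65.9, the range from the 10th to the 90th percentile of the members. Of these, 47.8% (46.9 to 48.8%) were at promoters. Sites with a peak in both quiescent lists and in neither activated list, 6714 in all, were at promoters in 10.7% of cases. The median distance to a TSS was 7401 bp for members, 608 bp for kept sites and 12176 bp for the sites open in quiescence alone. These intervals cover counting error only, and sites of the same libraries are not replicates, so the differences were not tested.

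**Figure D2:**
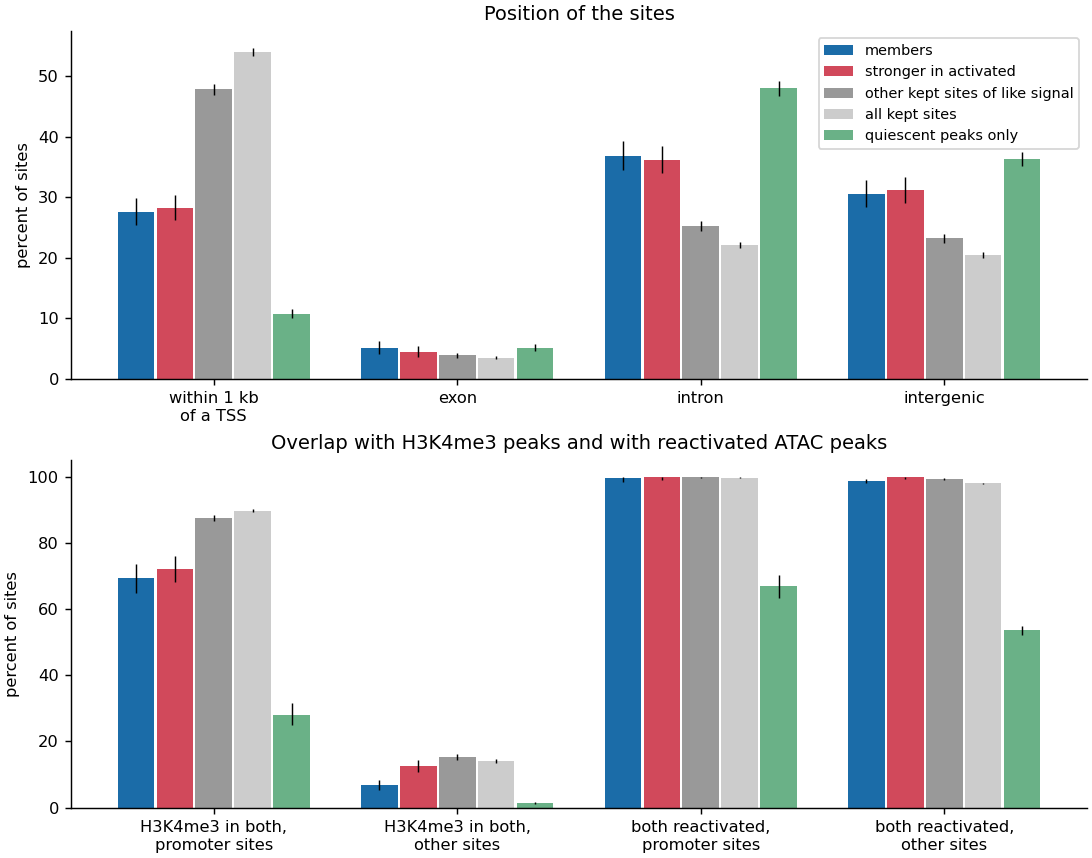
Bars give the percent of sites of each set, with exact 95% intervals, by position (upper panel) and by overlap with H3K4me3 peaks of both states or with ATAC-seq peaks of both reactivated libraries at promoter and other sites (lower panel). Members and sites stronger in activated NSPCs are alike in position, and both have fewer promoters than all kept sites.

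The share of kept sites that were members ranged from 4.56% on chromosome 19 to 9.74% on chromosome 13. The median site was 474 bp wide for members and 534 bp for kept sites, and the 200 bp around its centre had a GC content of 53.0% against 58.0%. Away from promoters this gap was smaller, at 51.5% against 52.5%.

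H3K4me3 played no part in the choice of members. An H3K4me3 peak of each state overlapped 391 members (23.9%, 21.9 to 26.1%), against 55.0% of kept sites and 29.4% of the sites stronger in activated NSPCs. With peaks of −log10 q of 10 or more alone, the mark was at 43.4% of 868 members, and 43.3% of these members and 67.0% of kept sites were at promoters. Since the mark sits at promoters and the sets differ in position, the values were also taken within classes. At promoters, 312 of 450 members (69.3%, 64.8 to 73.6%) carried the mark in both states, beside 89.8% of promoter sites among all kept sites, 87.6% in the set of like signal and 72.2% of those stronger in activated NSPCs. A peak in neither state was found at 116 promoter members (25.8%) and at 8.77% of all kept promoter sites. Away from promoters, 79 of 1184 members (6.67%) were marked in both states, against 14.03% of kept sites and 12.5% of those stronger in activated NSPCs.

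Where the mark was present in both states, its fold enrichment was higher in quiescence at the median in each of these sets. At the 312 promoter members the median was 30.1 in quiescent and 27.5 in activated NSPCs, and the log2 ratio had a median of 0.14 with quartiles of -0.03 and 0.34. Over all 11130 such kept promoter sites the median log2 ratio was 0.11, and at the 371 promoter sites stronger in activated NSPCs it was 0.12. The quiescent value was the higher one at 225 of the 312 promoter members (72.1%), against 66.9% of the kept promoter sites. There was 1 H3K4me3 library per state, so these values have no replicate check.

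Nearly all members were also open in reactivated NSPCs. A peak in both reactivated lists overlapped 1618 members (99.02%, 98.4 to 99.4%), close to the 98.9% of kept sites and the 99.8% of those stronger in activated NSPCs. By comparison, 55.0% of the sites open in quiescence alone had a peak in both. Those sites have no activated peak by definition and were narrower, with a median of 293 bp against 474 bp for members, so the sets are unlike. The reactivated lists were the longest. With each limited to as many of its strongest peaks as the shortest of the other 4 lists held, 88.7% of members (87.1 to 90.2%) were overlapped in both, beside 89.9% of kept sites and 97.5% of those stronger in activated NSPCs.

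In level, the members took middle values. The median percentile was 41.3 and 41.0 in reactivated replicates 1 and 2, where a site without a peak ranks lowest, with quartiles of 21.7 and 64.0 in replicate 1. Both reactivated libraries lay strictly between the states, above the higher activated and below the lower quiescent percentile, at 458 members (28.0%). Both were at or above the lower quiescent percentile at 302 (18.5%) and at or below the higher activated percentile at 359 (22.0%), and the other 515 were mixed. At the sites stronger in activated NSPCs, the median was 59.9 and 56.3, with both reactivated libraries at or above the level of the stronger state in 651 (35.8%) and at or below that of the weaker state in 119 (6.55%). Members at promoters and away from them were alike here, with 18.9% and 18.3% at or above the quiescent level. The states' own percentiles were used to choose the sites and are extreme by that choice, so the place of the reactivated values between them is a description only.

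**Figure D3:**
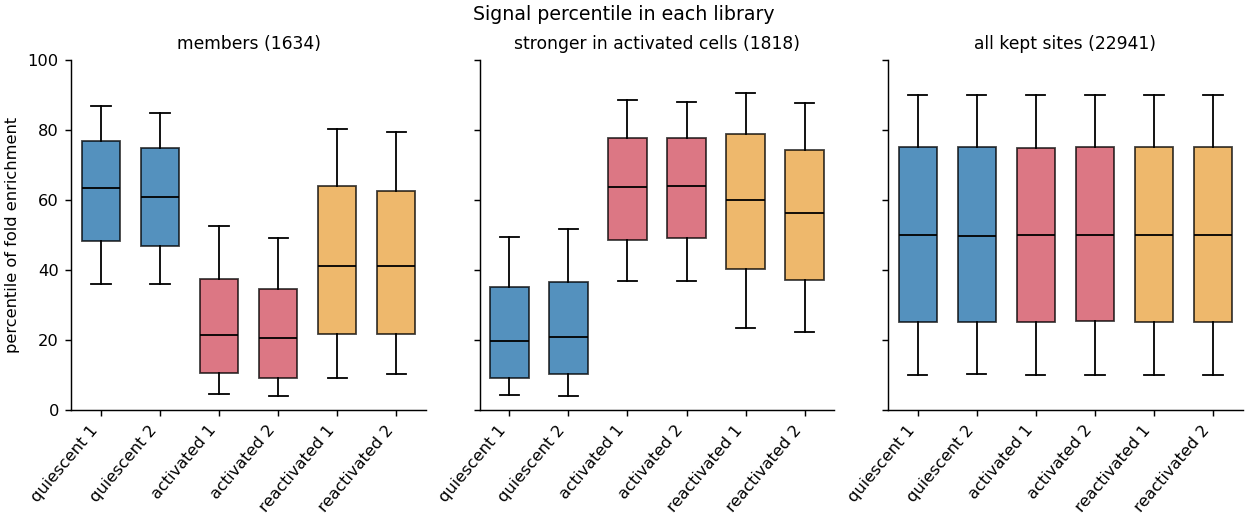
Boxes show the quartiles and median, and whiskers the 10th to 90th percentile, of the percentile of fold enrichment in each of 6 libraries, for members, sites stronger in activated NSPCs and all kept sites. Reactivated medians for members, 41.3 and 41.0, fall between those of the other states, and those for the sites stronger in activated NSPCs, 59.9 and 56.3, lie near the activated ones.

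The members with no reactivated peak were 6 in all, none of them at a promoter. The largest difference among them was at an intronic site of Myo16, chr8:10185302-10185793, with fold enrichment of 6.99 and 7.49 in quiescent NSPCs and 2.39 and 3.85 in activated NSPCs. Both of the next ones, chr13:21710518-21710719 and chr13:23521845-23522033, lay between histone genes on chromosome 13, near Hist1h2bl and Hist1h4h, which encode core histones. The former read 6.17 and 5.43 in quiescent NSPCs and 4.68 and 4.35 in activated NSPCs, and the latter 4.06 and 4.15 against 2.94 and 2.80. Both sites were intergenic, with centres 5.53 and 9.11 kb from the starts of these genes. Reads of near-identical histone genes can be placed at more than 1 copy, and whether this touched the values here was not tested.

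For sequence content, exact letters were searched on both strands of the 200 bp around each centre, and sites away from promoters were compared, since promoters differ in base composition. The NFI site TTGGC was held by 678 of 1184 such members (57.3%, 54.4 to 60.1%), against 51.7% (50.8 to 52.7%) of kept sites, 51.4% of the set of like signal, 54.4% (51.6 to 57.1%) of the sites stronger in activated NSPCs and 54.3% of those open in quiescence alone. The interval of the members overlapped that of the sites stronger in activated NSPCs. With the lists of lane tag L005 alone, a setting chosen after seeing the data, the share was 50.4% of members, 50.2% of kept sites and 52.7% of the opposite set, so the difference from kept sites was not seen there. The core GTCTG, which SMAD proteins bind, was held by 613 members (51.8%, 48.9 to 54.7%), against 46.5% of kept sites, 45.2% (42.5 to 48.0%) of the sites stronger in activated NSPCs and 53.5% of those open in quiescence alone. Away from promoters, the GC-rich SMAD letters GGCGCC were in 4.56% (3.44 to 5.91%) of members and 4.73% of kept sites. They were in 2.76% (1.94 to 3.80%) of the sites stronger in activated NSPCs and 2.97% of those open in quiescence alone. Members thus stood above the opposite set, as for GTCTG but with overlapping intervals, and not above kept sites. At promoters, GGCGCC was in 13.8% of members, 20.0% of kept sites and 18.3% of the opposite set. Letters as short as these occur often by composition, and a match is not a bound site.

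Other motifs were less frequent at members than in the opposite set, the sites stronger in activated NSPCs. The E-box CAGATG, of the type that NEUROD and OLIG proteins bind, was in the window of 184 members (15.5%, 13.5 to 17.7%), of 18.97% of kept sites and of 28.1% (25.7 to 30.7%) of the opposite set. The SOX core ACAAT was in 256 members (21.6%, 19.3 to 24.1%), 24.5% of kept sites and 32.7% (30.1 to 35.3%) of the opposite set. The AP-1 site TGANTCA was in 6.76% of members, 8.71% of kept sites and 11.1% of the opposite set, and the RFX site GTTGCCAT in 1.27%, 2.66% and 4.29%. The TEAD site GGAATG did not separate the sets, at 14.1%, 13.2% and 15.4%. The CTCF motif was less frequent in both sets that differed between states, at 2.79% of members and 1.84% of the opposite set, than in kept sites, at 5.47%. CTCF is the insulator protein that marks boundaries of chromatin domains.

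**Figure D4:**
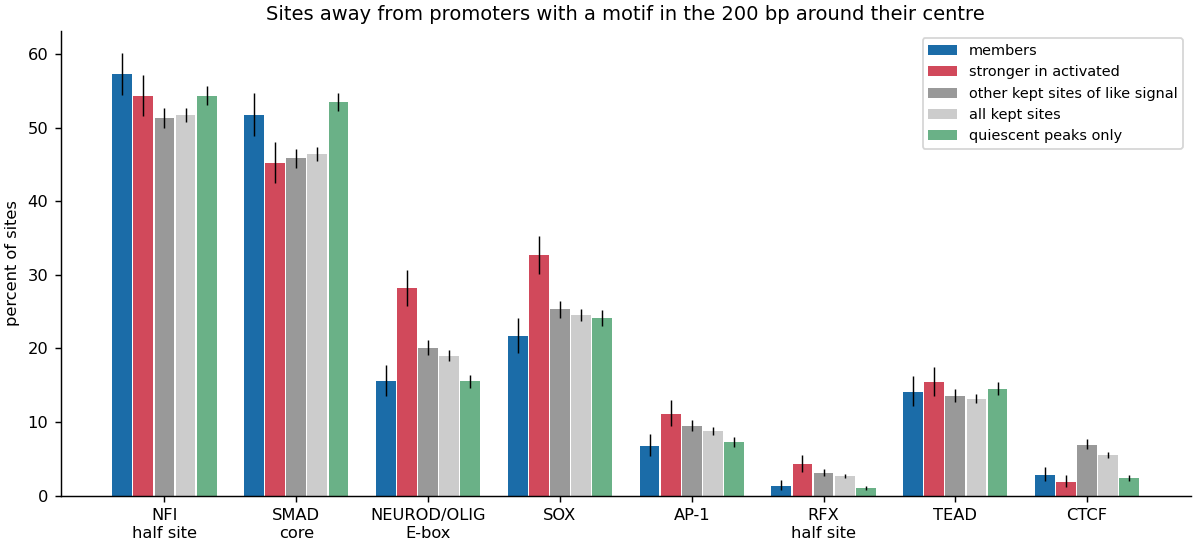
Bars give the percent of sites away from promoters, with exact 95% intervals, whose central 200 bp hold each motif. For the SOX core the members stand at 21.6% and the sites stronger in activated NSPCs at 32.7%, whereas for the NFI site they stand at 57.3% and 54.4%.

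At promoters, the NFI site was in 48.7% (44.0 to 53.4%) of 450 members, 40.3% (36.0 to 44.7%) of the opposite set and 42.1% of kept promoter sites. The CCAAT box of NF-Y, which shares letters with the NFI site where ATTGGC occurs, was in 31.6%, 19.1% and 32.8% in the same order. Among the 22 motifs searched, the GC box GGGCGG was the most common at kept promoter sites, at 60.2%. It was in 42.7% of promoter members, 46.3% of promoter sites of the opposite set and 56.2% of those in the set of like signal.

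The full palindrome, TTGGC and GCCAA with 5 bases between them, was rare everywhere and was found in 3 members (0.253% of members away from promoters, against 0.161% of such kept sites). All are printed, as the 200 bp around the centre in GRCm38, plus strand, with the palindrome in capitals.
chr1:6866937-6867136: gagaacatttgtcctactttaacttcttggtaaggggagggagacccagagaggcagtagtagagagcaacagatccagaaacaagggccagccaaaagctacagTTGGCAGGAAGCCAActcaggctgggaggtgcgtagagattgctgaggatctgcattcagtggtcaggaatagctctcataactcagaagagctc
chr15:27752090-27752289: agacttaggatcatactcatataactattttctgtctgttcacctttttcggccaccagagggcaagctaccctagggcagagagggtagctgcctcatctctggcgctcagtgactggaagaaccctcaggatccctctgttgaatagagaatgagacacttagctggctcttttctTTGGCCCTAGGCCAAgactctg
chr1:12000682-12000881: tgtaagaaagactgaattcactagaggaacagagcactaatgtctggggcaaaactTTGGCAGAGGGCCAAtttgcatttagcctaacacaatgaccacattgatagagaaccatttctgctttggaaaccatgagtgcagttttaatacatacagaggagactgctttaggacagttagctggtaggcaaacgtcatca
The differences at these sites were modest, at 17.98, 17.7 and 16.5 points. The first read 6.18 and 6.04 in quiescent NSPCs, 5.97 and 3.14 in activated NSPCs and 6.00 and 7.18 in reactivated NSPCs (percentiles 13.8 and 20.8). The second, in an intron of Trio, a guanine nucleotide exchange factor, read 6.05 and 5.35, then 4.51 and 4.71, then 6.00 and 6.93 (percentiles 13.7 and 19.2). The third read 8.02 and 6.65, then 6.90 and 4.28, then 13.4 and 13.8, and its reactivated percentiles, 75.3 and 74.3, were above the quiescent ones, 71.6 and 62.2.

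Genes were assigned to 600 of the 1634 members, 284 of them with any part of the site within 1 kb of the start of a protein-coding gene and 316 at a distance from the site's centre. The other 1034 had none, and their median distance to the nearest protein-coding start was 75580 bp. Of 12397 genes with an assigned kept site, 740 had a member. The gene lists below are given by counts, beside the 4.39% of kept sites with an assigned gene that were members and the 4.15% that were stronger in activated NSPCs. These lists were chosen with earlier results of these data known.

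Genes of the BMP pathway held the highest share of members of the 20 lists. Of 46 kept sites at 30 of these genes, 8 were members (17.4%) and 1 was stronger in activated NSPCs (2.17%). The members were at Msx2, Smad6, Nog, Smad7, Msx1, Smad9, Atoh8 and Id1, and all but the one at Atoh8 were at the gene's promoter. SMAD6 and SMAD7 are inhibitory SMADs, NOG (noggin) is a secreted antagonist that binds BMP ligands, SMAD9 is a receptor-activated SMAD, and ID1, MSX1, MSX2 and ATOH8 are transcriptional regulators known as targets of BMP signalling. The median difference over the 46 sites was -6.51 points, beside -7.05 for all kept sites with an assigned gene, so most sites of the list had overlapping states or leaned to the activated side.

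At the Smad6 promoter, chr9:64021736-64022328, fold enrichment was 7.53 and 5.41 in quiescent NSPCs, 4.12 and 3.13 in activated NSPCs and 4.11 and 4.59 in reactivated NSPCs (replicates 1 and 2). The quiescent mean was 6.47 ± 1.5 and the activated mean 3.62 ± 0.702 (SD, n = 2). Reactivated cells were at percentile 4.54 and 5.59, with the activated cells at 12.4 and 4.92 and well under the quiescent cells at 67.5 and 48.5. The H3K4me3 fold enrichment overlapping this site was 38.3 in quiescent and 14.1 in activated NSPCs, in 1 library each.

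The Nog promoter, chr11:89301931-89303152, had 7.40 and 5.99 in quiescent NSPCs, 4.68 and 4.33 in activated NSPCs and 6.09 and 6.23 in reactivated NSPCs, with an H3K4me3 fold enrichment of 46.3 in quiescent and 21.8 in activated NSPCs. The Smad7 promoter, chr18:75367136-75367730, had 5.95 and 6.91 in quiescent NSPCs, 4.83 and 4.30 in activated NSPCs and 4.72 and 5.63 in reactivated NSPCs, but H3K4me3 was 35.1 and 36.6. In percentile, the reactivated libraries stood below both activated libraries at both promoters, at 14.3 and 14.1 for Nog and at 6.73 and 10.49 for Smad7. The Id1 promoter, chr2:152736032-152736500, was close to the threshold, with 6.71 and 5.73 in quiescent NSPCs and 6.11 and 4.62 in activated NSPCs, whose ranges overlap without scaling. The reactivated libraries read 5.40 and 6.96 there, at percentiles 10.1 and 19.4, below both activated ones of 37.3 and 28.8. H3K4me3 at Id1 was 57.9 in quiescent and 35.6 in activated NSPCs. In the same order of states, it was 7.08 and 7.70 at Msx2, 31.6 and 30.2 at Smad9 and 45.1 and 41.5 at Msx1.

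At the other members of the list, those at Msx2, Smad9, Msx1 and Atoh8, both reactivated percentiles were above both activated ones. At the Msx2 promoter, chr13:53472436-53472989, fold enrichment was 6.83 and 5.88 in quiescent NSPCs, 4.38 and 3.99 in activated NSPCs and 10.45 and 11.7 in reactivated NSPCs, with percentiles of 51.3 and 58.7 in the last beside 60.4 and 54.3 in quiescence. The Smad9 promoter read 5.96 and 4.5, then 4.24 and 3.28, then 11.9 and 10.7, with reactivated percentiles of 64.0 and 50.05. The Msx1 promoter read 8.89 and 7.34, then 6.91 and 5.70, then 12.5 and 11.9, with reactivated percentiles of 68.5 and 59.9 beside 46.1 and 45.2 in activated cells. The members at Smad9, Msx1, Id1 and Atoh8 lie outside the rule for named sites and were named after their values were seen.

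**Figure D5:**
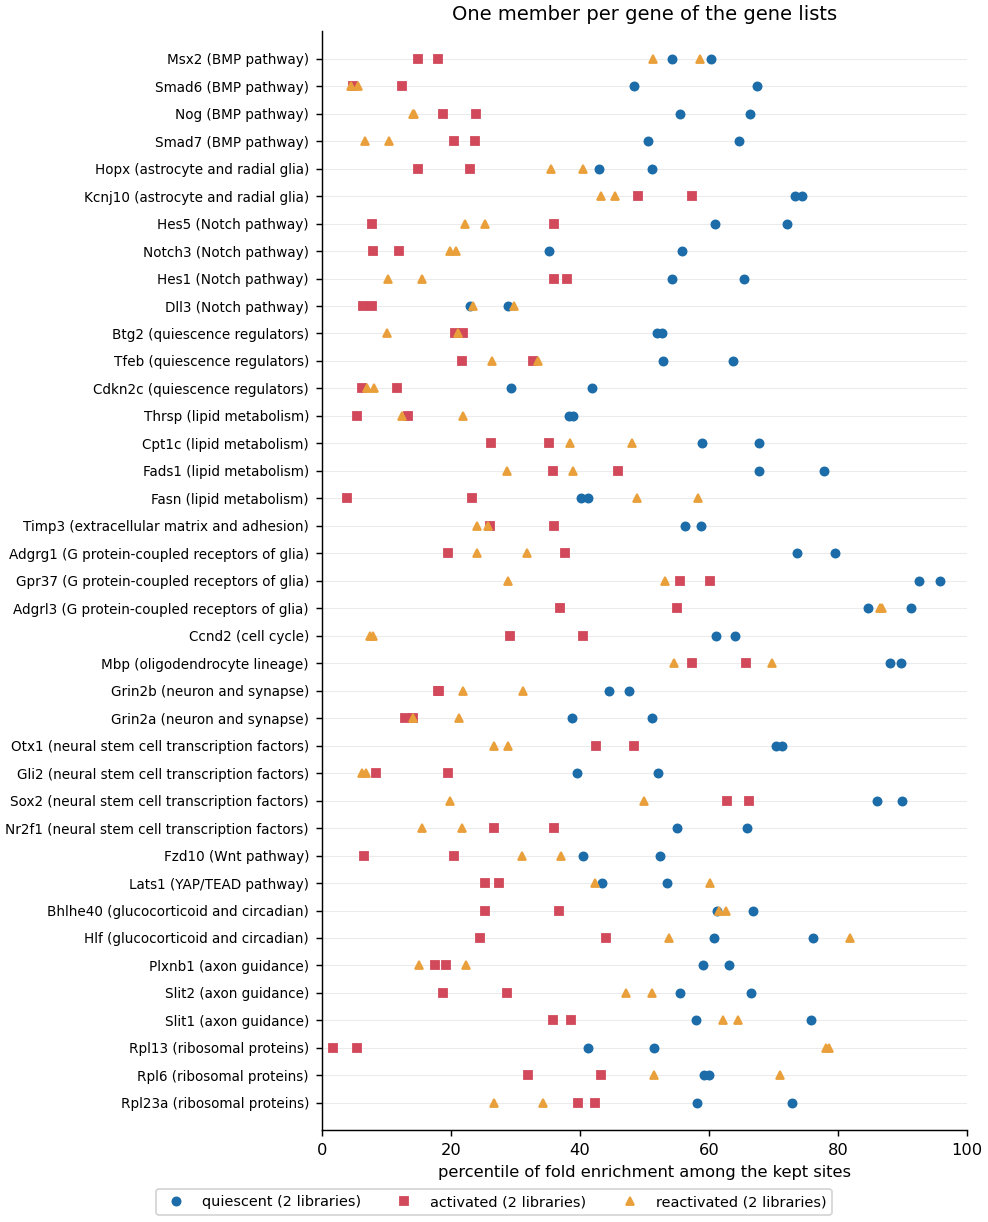
Each row is 1 member at a gene of the lists, and points give its percentile of fold enrichment in the 2 quiescent (circles), 2 activated (squares) and 2 reactivated (triangles) libraries. The reactivated points lie near the activated ones for Smad6 and Cdkn2c and near the quiescent ones for Msx2 and Adgrl3.

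The Notch pathway, through which neighbouring cells keep stem cells undifferentiated, had 4 members among 39 kept sites (10.3%) and 1 site stronger in activated NSPCs. They were a site 12.5 kb upstream of Hes5, the Notch3 promoter, a site within 1 kb of the start of Hes1 and one within Dll3. HES1 and HES5 are repressors switched on by Notch, NOTCH3 is a receptor and DLL3 a ligand of the family. The Hes5 site, chr4:154948239-154948852, read 6.84 and 7.81 in quiescent NSPCs, 6.03 and 3.32 in activated NSPCs and 7.15 and 7.79 in reactivated NSPCs (percentiles 22.2 and 25.3), with the activated replicates further apart than the quiescent ones. The Notch3 promoter, chr17:32166752-32167025, read 6.42 and 4.51, then 4.11 and 3.34, then 6.94 and 7.05 (percentiles 20.7 and 19.8). The Hes1 site, chr16:30065065-30065440, read 6.30 and 7.004, then 6.23 and 5.09, then 5.42 and 6.45 (percentiles 10.2 and 15.6), so in unscaled fold enrichment the states nearly touched. The Dll3 site, chr7:28294571-28294835, was one of the weakest members by difference, at 15.2 points.

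Lipid metabolism had 5 members among 45 kept sites (11.1%) and none stronger in activated NSPCs. The members were at Thrsp, Cpt1c, Fads1, Fasn and Scd2, the last outside the rule for named sites. FASN is the fatty acid synthase, SCD2 and FADS1 are fatty acid desaturases, THRSP is a regulator of fatty acid synthesis, and CPT1C is a brain form of the carnitine palmitoyltransferases. At the Thrsp promoter, chr7:97417260-97417770, fold enrichment was 5.07 and 4.74 in quiescent NSPCs, 4.24 and 3.14 in activated NSPCs and 5.81 and 7.33 in reactivated NSPCs (percentiles 12.5 and 21.9). The Fads1 site, intronic at chr19:10188262-10188848, read 7.57 and 8.67, then 6.02 and 5.72, then 7.89 and 9.43 (percentiles 28.7 and 38.9, overlapping the activated ones of 35.9 and 45.8). The Fasn site, 9.49 kb upstream at chr11:120833607-120834183, read 5.19 and 4.89 in quiescent NSPCs and 5.04 and 2.99 in activated NSPCs, so that activated replicate 1 lay within the quiescent range.

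Neural stem cell transcription factors had 4 members among 49 kept sites (8.16%), at Sox2, Otx1, Gli2 and Nr2f1, and 1 site stronger in activated NSPCs. At the Sox2 promoter, chr3:34649345-34650233, fold enrichment was 10.3 and 11.1 in quiescent NSPCs, 9.07 and 7.17 in activated NSPCs and 6.84 and 10.7 in reactivated NSPCs (percentiles 19.95 and 49.9). SOX2 is needed for neural stem cells to renew, and its promoter was open in every library. Quiescence regulators had 3 members among 43 kept sites (6.98%). They were at Tfeb, a regulator of lysosome genes, at Cdkn2c, an inhibitor of cyclin-dependent kinases, and 20.2 kb upstream of Btg2, an antiproliferative factor, but nearer to Chit1. The Cdkn2c site, chr4:109665214-109665502, read 4.48 and 4.93 in quiescent NSPCs, 3.58 and 3.62 in activated NSPCs and 5.01 and 4.93 in reactivated NSPCs. In percentile its reactivated libraries, at 8.07 and 7.02, stood with the activated ones, at 6.20 and 11.7. The cell cycle list had 1 site stronger in activated NSPCs and 1 member among 42 kept sites (2.38%), at the promoter of Ccnd2, which encodes cyclin D2. It read 6.85 and 6.84 in quiescent NSPCs, 5.51 and 5.37 in activated NSPCs and 4.90 and 5.16 in reactivated NSPCs (percentiles 7.48 and 7.96).

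Astrocyte and radial glia genes had 2 members among 50 kept sites (4.00%), near the 4.39% of assigned sites, and 2 sites stronger in activated NSPCs. The members were 23.0 kb upstream of Hopx, a homeobox factor of quiescent stem cells, and at the promoter of Kcnj10, a potassium channel of astrocytes. At Kcnj10, chr1:172340647-172341335, fold enrichment was 8.23 and 8.14 in quiescent NSPCs, 7.21 and 6.69 in activated NSPCs and 9.56 and 10.1 in reactivated NSPCs (percentiles 43.3 and 45.5, below the activated ones of 49.0 and 57.4). No member fell at the NFI genes (0 of 7 kept sites), the AP-1 and immediate early genes (0 of 32), the proneural and EGF/FGF activation genes (0 of 38) or the LIF and JAK/STAT genes (0 of 22). Sites stronger in activated NSPCs numbered 0, 0, 2 and 1 in the same order. At the 4.39% of assigned sites, lists this short would hold few members, so nothing is read from their absence. Extracellular matrix and adhesion genes had 1 of 43 (2.33%), at the promoter of Timp3, a metalloproteinase inhibitor, beside 3 stronger in activated NSPCs. G protein-coupled receptors of glia had 3 of 39 (7.69%), at Adgrg1, Gpr37 and Adgrl3, but 6 stronger in activated NSPCs (15.4%).

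The Gpr37 site, intronic at chr6:25686676-25687252, was among the strongest named members, with 11.9 and 13.2 in quiescent NSPCs, 8.37 and 6.50 in activated NSPCs and 7.92 and 11.04 in reactivated NSPCs (percentiles 28.8 and 53.2). The Adgrl3 site, intronic at chr5:81028869-81029436, read 9.99 and 11.5, then 7.83 and 5.13, then 15.3 and 16 (percentiles 86.5 and 86.8), and had an H3K4me3 peak in quiescent cells alone. Axon guidance genes had 3 of 43 (6.98%), of which the Plxnb1 site, at a gene for a semaphorin receptor, had the largest difference of the named list members, 39.7 points. It lay at chr9:109097781-109098265 and read 7.10 and 6.33 in quiescent NSPCs, 4.62 and 4.09 in activated NSPCs and 6.19 and 7.40 in reactivated NSPCs (percentiles 15 and 22.3). The Slit2 promoter, at a gene for a secreted guidance cue, read 7.44 and 6.00, then 4.68 and 4.61, then 9.97 and 10.8 (percentiles 47.1 and 51.2). The remaining lists held between 1 and 3 members each: oligodendrocyte lineage 1 of 16 (12.8 kb upstream of Mbp), neuron and synapse 2 of 25 (the promoter of Grin2b and a site 1.67 kb inside Grin2a, both genes of glutamate receptors), Wnt pathway 1 of 29 (Fzd10), YAP/TEAD pathway 1 of 21 (Lats1), glucocorticoid and circadian genes 2 of 37 (Hlf and Bhlhe40) and ribosomal proteins 3 of 98 (Rpl13, Rpl6 and Rpl23a). As many sites were stronger in activated NSPCs for oligodendrocyte lineage (1), neuron and synapse (2), Wnt pathway (1) and glucocorticoid and circadian genes (2). The YAP/TEAD pathway had 0 such sites and ribosomal proteins 1.

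Members were spread thinly over genes: 727 genes had 1 member, 13 had 2 and none had more. The sites stronger in activated NSPCs were spread much alike, with 1 at 636 genes, 2 at 19 and 3 at 1. The pairs of members with the largest summed difference were at Pdzrn3, Nap1l5, Lrrc14b, Pygb, Oxtr and Atp6v1e2, and none of these 6 genes had a site stronger in activated NSPCs. Of all 740 genes with a member, only 24 had such a site, so nothing is read from this count. Pdzrn3 encodes a ubiquitin ligase. Its intronic site, chr6:101374623-101375122, read 7.23 and 6.72 in quiescent NSPCs, 4.28 and 3.36 in activated NSPCs and 2.56 and 4.08 in reactivated NSPCs (percentiles 1.35 and 3.98), and carried an H3K4me3 peak, with a fold enrichment of 27.9, in quiescent cells alone. At Oxtr, the oxytocin receptor gene, the promoter site read 7.87 and 5.48, then 5.45 and 3.04, then 7.02 and 7.29 (percentiles 21.2 and 21.5), and the states nearly met in unscaled fold enrichment. A site 11.4 kb upstream of it, chr6:112501148-112501577, read 9.203 and 6.11, then 4.38 and 4.42, then 9.78 and 9.71 (percentiles 45.4 and 41.5). At Nap1l5, an imprinted gene, the larger difference was at a site 21 kb upstream, chr6:58927373-58928331, with 11.2 and 9.78 in quiescent NSPCs and 3.85 and 4.56 in activated NSPCs.

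The promoter members with the largest difference and H3K4me3 in both states included one in Dmrta1, which encodes a transcription factor of the DMRT family. At chr4:89687858-89688716, fold enrichment was 13.1 and 15.5 in quiescent NSPCs, 5.04 and 4.85 in activated NSPCs and 12.0 and 10.8 in reactivated NSPCs (percentiles 64.1 and 51.3), and H3K4me3 was 13.2 in quiescent and 7.05 in activated NSPCs. The promoters of Rsph4a, which encodes a radial spoke protein of motile cilia, and Hook1, a linker to microtubules, came next. Rsph4a, chr10:33904838-33905097, read 7.49 and 7.03, then 4.38 and 3.42, then 15.3 and 14.2, and Hook1, chr4:95966903-95967621, read 8.94 and 8.02, then 4.91 and 4.28, then 15.6 and 14.1. In percentile the reactivated libraries stood at 86.7 and 77.0 at Rsph4a, above both quiescent ones, and at 87.9 and 76.2 at Hook1, beside 78.4 and 73.6 in quiescence. The other, chr18:35888925-35889997, went the other way, with 6.64 and 6.22 in quiescent NSPCs, 3.75 and 3.63 in activated NSPCs and 2.86 and 3.53 in reactivated NSPCs (percentiles 1.77 and 2.78).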

How the data were processed

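ATAC-seq and H3K4me3 ChIP-seq peak lists were deposited for quiescent, activated and, for ATAC-seq, reactivated NSPCs. Per the labels and the submitters' processing notes, the authors used Trim Galore 0.4.0, Bowtie2 2.2.5, Picard 1.88, SAMtools 1.3.1, HOMER and MACS2 on mm10 (GRCm38), with peaks called per library. The deposited columns hold fold enrichment, which is a ratio of summit pileup to background, −log10 p and q values and a score made from the q value. Fold enrichment ranked the sites, and pileups were recovered from the deposited columns as whole reads within 0.02%. Percentiles remove differences in overall level between libraries, and also the size of any shift common to all sites.

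Peaks were merged and annotated with GENCODE M21 by any overlap with the site, as promoter (within 1 kb of a TSS), then exon, intron or intergenic. A gene was assigned where its protein-coding start was within 1 kb of any part of the site or, failing that, near its centre, as the report describes; printed distances run from the centre. H3K4me3 and reactivated peaks counted with an overlap of 1 bp or more. Motifs were searched as exact letters on both strands. Shares carry exact Clopper-Pearson 95% intervals, which cover counting error only. Named were the 12 members of largest difference, up to 4 genes per list, 3 sites on each side of the threshold, 6 genes with most members (ties ordered by summed difference), 4 promoter members with H3K4me3, 4 members without reactivated peaks, and members with the NFI palindrome. The members and lists were chosen with earlier results of these data known. The steps were tested on simulated data. Python 3.11.15, pandas 2.3.3, SciPy 1.17.1 and pysam 0.24.0 were used. Chromosomes X and Y were left out of the main result, and the settings tried are given with the closing observations. Some items are not reported here.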

Additional observations from a re-analysis of the deposited data

How the results depend on the processing

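The number of members depended most on the libraries required. Leaving out a library gave 2995 (quiescent replicate 1), 3047 (quiescent replicate 2), 3140 (activated replicate 1) or 3220 (activated replicate 2) members in place of 1634, since fewer values have to be apart. It moved the promoter share from 27.5% to between 29.2% and 34.6%, the H3K4me3 share from 23.9% to between 25.9% and 32.7%, the share open in reactivated cells from 99.02% to between 97.9% and 99.1%, and the NFI letters TTGGC share from 57.3% to between 54.3% and 56.6%. The libraries with lane tag L005 alone, chosen after seeing the data, gave 5871 members, 32.4% at promoters, 30.3% with H3K4me3, 96.4% open in reactivated cells and 50.4% with these letters. A difference of 10 points gave 2485 members, 32.8% at promoters and 30.9% with H3K4me3, and of 20 points 23.2% and 17.8%. Peaks with −log10 q of 10 or more gave 868 members, 43.3%, 43.4% and 99.8% open in reactivated cells. Median-centred log2 values 0.5 apart gave 923 members, 21.8% and 16.6%. Percentiles among all merged sites gave 25.4% and 20.9%, mean fold enrichment 31.9% and 29.7%, and pileup 21.6% with H3K4me3. The promoter share was 32.7% within 2 kb and 22.9% with protein-coding starts. H3K4me3 was 28.4% in at least 1 state and 21.6% over most of the site. Members open in reactivated cells were 99.6% with 1 list and 88.7% with shortened lists. Of members away from promoters, 75.8% held TTGGC anywhere in the site, 72.6% in a 400 bp window, and 0.253% held the palindrome. Causes were not tested. No paired analysis was made, because the contrast that chose the sites was not tested. There was thus no fit with a replicate block, and the replicate pairs are read one by one as a description only. With 2 libraries per state and 1 for H3K4me3, the number of libraries limits what can be read at single sites.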
